A study of Mus musculus with 16 samples.

Results

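Nitric oxide, arginine and itaconate metabolism was followed through 7 genes of neutrophils sorted from mouse liver: Nos2, Gch1, Slc7a2, Ass1, Arg1, Arg2 and Acod1. The genes were taken by name, with no threshold on their measured values but with earlier results of these data known: 8 symbols were looked up in the GENCODE annotation of the build used for the counts (mm10), and 1 of them, Irg1, is the older symbol of Acod1. All 7 were among the 54532 genes of the deposited table, and 6 of them were among the 9851 genes with enough counts to be tested. Slc7a2 fell below the filter on low counts and is given as counts only.

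Nos2 encodes the inducible nitric oxide synthase, which turns arginine into nitric oxide and citrulline and needs the cofactor tetrahydrobiopterin. Arginases compete with it for arginine, which they split into ornithine and urea. Acod1 encodes the mitochondrial enzyme that makes itaconate from the citric acid cycle intermediate cis-aconitate, and itaconate in turn inhibits succinate dehydrogenase. In macrophages, Nos2 is a textbook target of interferon-gamma, the ligand of the receptor whose first chain is encoded by Ifngr1, and Acod1 is known as a gene induced by microbial products and interferons.

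The Ifngr1_KO group comprised 8 libraries of CD45.2+ neutrophils derived from Ifngr1-/- marrow, and the WT group comprised 8 libraries of CD45.1+ neutrophils derived from wild-type marrow. Every mouse, numbered 2 to 9, gave 1 library of each group, because each was an irradiated wild-type host (about 1000 cGy) rebuilt for 8 weeks with equal parts of both marrows. All mice, of strain C57BL/6 per the labels, carried MC38 flank tumours, a colon carcinoma line, and all had received an agonist antibody against CD40 (aCD40) 1 week after tumour injection and 2 days before the livers were taken. There was no untreated and no tumour-free group, so the comparison is one of genotype under treatment. In every mouse the genotype came with its own donor, its own CD45 allele and its own gate, which cannot be told apart from it, and which gate any surviving host cells would enter is not given in the sources used here. Ages were not given in the sources used here.

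Libraries held 12.5 to 16.9 M counts in Ifngr1_KO and 13.1 to 21.7 M counts in WT. Ifngr1 itself, the check of the labels, had 38.8 CPM at the lowest, 87.9 at the median and 119 at the highest in Ifngr1_KO libraries, against 228, 309 and 358 CPM in WT libraries, so reads were left in the gene but the groups were separate. CPM is a gene's count scaled to a library of 1e6 counts, here after TMM, edgeR's correction for library composition. Across all genes 229 of 9851 (2.32%) were lower and 47 (0.477%) higher in Ifngr1_KO by edgeR's quasi-likelihood test with mouse as a block, at a Benjamini-Hochberg adjusted p under 0.05. Scaled by library totals instead, the split was 164 lower and 102 higher. The share of counts from mitochondrially encoded mRNAs ran from 0.475% to 2.50% (median 1.40%) in Ifngr1_KO and from 0.294% to 1.19% (median 0.569%) in WT, and it was higher in Ifngr1_KO in 6 of 8 mice, the exceptions being mice 2 and 4. The Ifngr1_KO library of mouse 7 had the highest share.

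The sort was checked against 11 lists of cell type markers. Neutrophil markers summed to 29675 CPM at the lowest, 44204 at the median and 87894 at the highest in Ifngr1_KO, and to 34909, 47652 and 59083 CPM in WT, led by the calprotectin genes S100a8 and S100a9. Of the 12 neutrophil markers, all tested, Ltf, the lactoferrin of secondary granules, passed as lower in 8 of 8 mice (355 ± 309 CPM in Ifngr1_KO, 680 ± 376 CPM in WT, edgeR adjusted p = 0.0219), and 11 did not pass. Of the Kupffer cell and macrophage genes, Vsig4 had no count in any library and Clec4f and Timd4 had at most 10 and 18 counts. C1qb, of the same list, had 13.3 ± 2.93 CPM in Ifngr1_KO and 14.8 ± 6.10 CPM in WT. The hepatocyte genes Otc and Cps1 had 0 and at most 13 counts, while the list was led by Hp, at 3683 ± 924 CPM in Ifngr1_KO and 4098 ± 901 CPM in WT (SD, n = 8 each). Apoa1, also of this list, had 120 ± 95.4 CPM in Ifngr1_KO and 112 ± 74.4 CPM in WT. B and plasma cell markers summed to 75.7, 83.9 and 133 CPM (lowest, median, highest) in Ifngr1_KO and to 160, 237 and 284 CPM in WT; Ighm made up most of this and passed as lower (57.6 ± 10.3 CPM in Ifngr1_KO, 198 ± 54.5 CPM in WT, edgeR adjusted p = 1.7e-05), while Cd79a did not exceed 7.27 CPM in Ifngr1_KO and 7.85 CPM in WT. The markers of dendritic cells, of eosinophils, basophils and mast cells, of T and NK cells, of endothelial and stellate cells, of platelets and red cells and of epithelium and MC38 summed, list by list, to at most 351 CPM in any library. In this order 1 of 8, 2 of 9, 4 of 11, 2 of 8, 6 of 7 and 2 of 5 genes were tested. None of the tested genes passed.

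The bases before the start of a gene show which letters stand where an inducible gene is controlled, so RefSeq's promoter windows (250 bases before to 50 after the start, build GRCm38.p6) were searched for 6 short motifs on both strands. Windows were given for 3 of the 7 genes, Acod1, Ass1 and Gch1. The bases before the start are shown for Acod1, on the plus strand at chr14:103046762-103047011, and for Gch1, on the minus strand at chr14:47189414-47189663, because these genes went opposite ways in most mice. Both are written 5′ to 3′ along the gene, and capitals mark motif matches.
Acod1: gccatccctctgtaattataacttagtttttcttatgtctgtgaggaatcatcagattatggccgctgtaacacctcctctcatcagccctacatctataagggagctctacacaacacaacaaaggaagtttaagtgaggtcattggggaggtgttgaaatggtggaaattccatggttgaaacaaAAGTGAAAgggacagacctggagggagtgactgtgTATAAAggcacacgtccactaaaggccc
Gch1: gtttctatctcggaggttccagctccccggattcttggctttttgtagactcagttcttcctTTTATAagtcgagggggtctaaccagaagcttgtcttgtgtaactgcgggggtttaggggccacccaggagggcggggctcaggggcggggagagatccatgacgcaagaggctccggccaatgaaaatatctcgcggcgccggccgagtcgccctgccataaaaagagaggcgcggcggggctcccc
In Acod1 the letters AAGTGAAA, a match to AANNGAAA (a core of sites bound by interferon regulatory factors), begin 63 bases before the start, and TATAAA begins 28 bases before it. Gch1 holds TATAAA only on the opposite strand, read as TTTATA, beginning 188 bases before its start, and Ass1 held none of the 6 motifs. Of 32817 RefSeq windows, 23.9% hold AANNGAAA and 13.6% hold TATAAA. The other motifs, TTCNNNGAA (the gamma-interferon activation site, in 8.29% of windows), the core of the interferon-stimulated response element (3.43%), TGANTCA (the AP-1 site, 7.81%) and a form of the NF-kB site (1.63%), had no match in the windows of these 3 genes. RefSeq's start of Acod1 lies inside the gene as GENCODE gives it, whose first base is 103046977, so the TATAAA and the last bases shown fall within the GENCODE gene. A match describes letters and not a bound site.

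**Figure D1:**
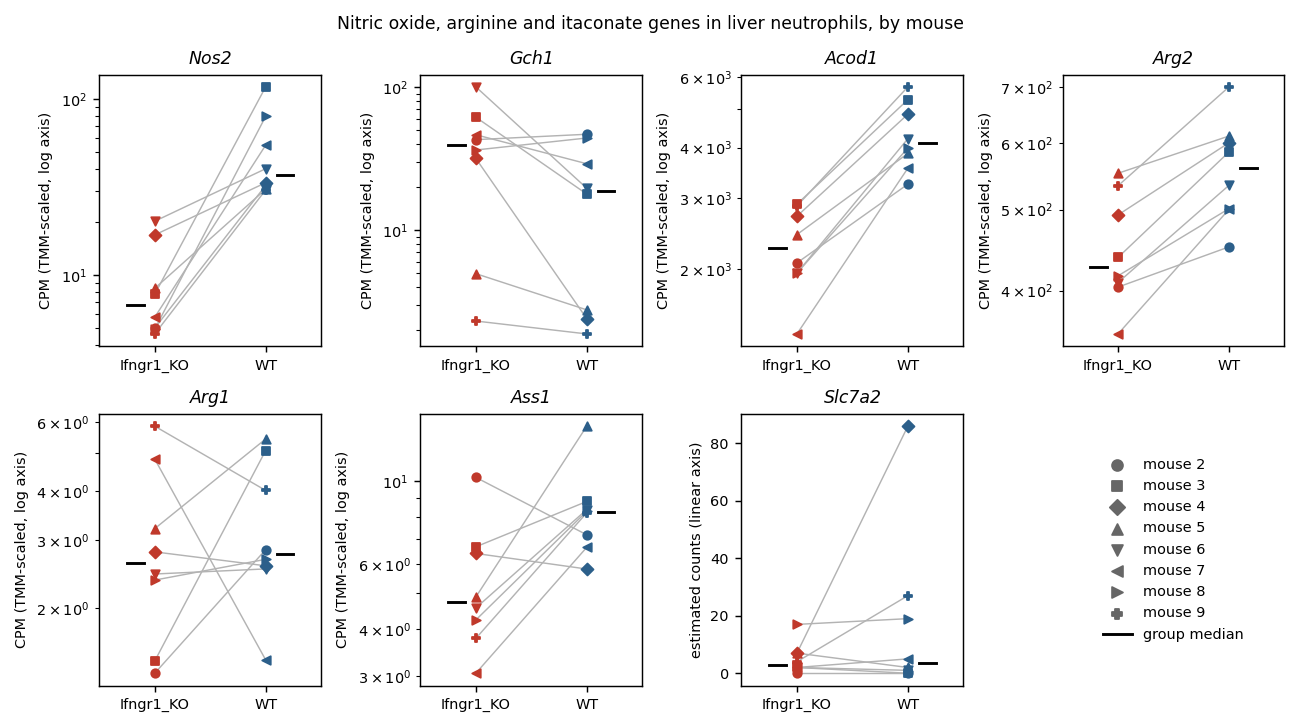
Level of each of the 7 genes in the Ifngr1_KO (left, red) and WT (right, blue) library of every mouse, as TMM-scaled CPM on a log axis, or as estimated counts on a linear axis for Slc7a2; lines join the libraries of 1 mouse and black bars are group medians. Lines of Nos2, Acod1 and Arg2 are lower at the Ifngr1_KO end in 8 of 8 mice, those of Gch1 are higher there in 6 of 8, and those of Arg1 go both ways.

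Nos2 (ENSMUSG00000020826, chr11:78920787-78960254, plus strand, 4412 bases of merged exons) was the gene with the largest fold difference of the 6 tested. In the Ifngr1_KO libraries of mice 2 to 9 it had 4.997, 7.79, 16.9, 8.41, 20.2, 5.77, 4.94 and 4.63 CPM, against 32.3, 117, 33.4, 30.7, 40.1, 54.6, 79.5 and 30.4 CPM in the WT libraries of the same mice. The highest Ifngr1_KO library lay below the lowest WT library, so the groups did not overlap. Nos2 averaged 9.20 ± 6.00 CPM in Ifngr1_KO and 52.3 ± 31.1 CPM in WT (SD, n = 8 each). It fell by 2.55 on the log2 scale (SE 0.40, edgeR adjusted p = 0.00553), to 17.1% of the WT level.

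The mice differed in how far Nos2 fell. WT over Ifngr1_KO within a mouse was 1.98-fold in mouse 4 and 1.99-fold in mouse 6, the mice with the highest Ifngr1_KO levels. It was 3.65-fold in mouse 5 and between 6.46-fold and 9.47-fold in mice 2, 7 and 9. The widest gaps, 15.0-fold in mouse 3 and 16.1-fold in mouse 8, came with the highest WT levels. The fold change kept its call with any 1 mouse left out, between -2.78 and -2.33. Adding the mitochondrial share to the model gave -1.85 and the call was lost (adjusted p = 0.441). In mice 2 and 4, whose Ifngr1_KO library did not have the higher mitochondrial share, Nos2 was 6.46-fold and 1.98-fold lower in Ifngr1_KO. The part of the mitochondrial share in the difference was not tested.

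Acod1 (ENSMUSG00000022126, chr14:103046977-103056573, plus strand, 2623 exon bases) was lower by a smaller and more even factor, and it was one of the most abundant mRNAs of these cells. By mouse, its levels were 2069, 2895, 2703, 2434, 1953, 1379, 1953 and 2867 CPM in Ifngr1_KO, against 3247, 5264, 4844, 3870, 4210, 3557, 3992 and 5663 CPM in WT. The groups did not overlap here either. It averaged 2282 ± 534 CPM in Ifngr1_KO and 4331 ± 847 CPM in WT (SD, n = 8 each), which is a place of 71 in Ifngr1_KO and 27 in WT when the tested genes are ranked by CPM. Acod1 fell by 0.94 on the log2 scale (SE 0.10, edgeR adjusted p = 2.4e-04), to 52.2% of WT, in 8 of 8 mice. Within mice the WT over Ifngr1_KO ratio ran from 1.57 in mouse 2 to 2.58 in mouse 7. Acod1 alone took 0.130% to 0.312% of all counts in Ifngr1_KO libraries and 0.344% to 0.569% in WT libraries.

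Of the 6 tested genes, Nos2 and Acod1 made 2 calls, both lower. The background was 2.8% of 9851 genes called in either direction, 2.32% lower and 0.477% higher. Groups without overlap, lower in Ifngr1_KO, were seen for these 2 of the 6 genes and for 1.48% of all genes tested, and without overlap but higher for 0 of the 6 and 0.173% of all. Nos2, Acod1 and Arg2 were lower in every mouse, as 4.93% of all genes were. The median log2 fold change of the 6 was -0.50, beside 0.05 for all genes. Nos2, Acod1, Arg2, Ass1 and Gch1 had an unadjusted p under 0.05, as 16.3% of all genes did. Since the genes were chosen with results of these data known, these counts are a description.

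The larger fold of Nos2 was tested within mice. The log2 difference of Nos2 averaged -2.47 ± 1.15 and that of Acod1 -0.94 ± 0.24 over the 8 mice, a gap of -1.53 ± 1.13 (SD), below 0 in 7 mice and 0.14 in mouse 6 (two-sided exact permutation test by sign flips, p = 0.0234, adjusted over 3 such differences p = 0.0234). The gap of Nos2 to Arg2 was -2.15 ± 1.13 and that to Gch1 was -3.57 ± 1.05. Both were below 0 in 8 of 8 mice (same exact test, p = 0.0078, the smallest that 8 pairs can give, adjusted p = 0.0117). Over the 16 libraries, with group means removed, Nos2 and Acod1 had a Pearson correlation of 0.14, which describes libraries that also share depth and scaling.

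Nos2, Arg1 and Acod1 are also known in mononuclear phagocytes. Of the markers of these cells, Adgre1 and Ly6c2 passed as lower and the other tested genes did not pass. Kupffer cell and macrophage markers summed to 476, 1857 and 2275 CPM (lowest, median, highest) in Ifngr1_KO and to 1713, 2146 and 2353 CPM in WT. Among the 7 of these 15 genes that were tested, Adgre1 passed as lower, at 36.0 ± 14.5 CPM in Ifngr1_KO and 76.5 ± 25.8 CPM in WT (edgeR adjusted p = 0.0108), and 6 did not pass. Csf1r and Slc40a1 made up most of the sum. Monocyte markers summed to 1789, 2283 and 2856 CPM in Ifngr1_KO and 2611, 3007 and 3610 CPM in WT, and 1 of their 10 genes, Ly6c2, passed as lower (741 ± 194 CPM in Ifngr1_KO, 1212 ± 210 CPM in WT, edgeR adjusted p = 0.00543). Ccr2, of the same list, was near 0 at 1.38 ± 1.44 CPM in Ifngr1_KO and 0.836 ± 0.832 CPM in WT. Other genes of the list were present. Cx3cr1 had 13.2 ± 5.52 CPM in Ifngr1_KO and 11.9 ± 4.29 CPM in WT. Chil3 had 173 ± 94.9 CPM in Ifngr1_KO and 195 ± 111 CPM in WT. The part of these cells in the fall of Nos2 and Acod1 was not tested. In bulk RNA, fewer cells that make a transcript and less of it per cell cannot be told apart.

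Gch1 (ENSMUSG00000037580, chr14:47153895-47189413, minus strand, 6251 exon bases) encodes GTP cyclohydrolase 1, the first and rate-limiting enzyme of tetrahydrobiopterin synthesis. Its levels were 42.9, 61.6, 31.7, 4.96, 100.4, 46.5, 36.4 and 2.32 CPM in the Ifngr1_KO libraries of mice 2 to 9, against 46.8, 17.9, 2.41, 2.77, 19.6, 29.1, 44.1 and 1.88 CPM in the WT libraries. The groups overlapped widely, and Ifngr1_KO was the higher library in 6 of 8 mice, all but mice 2 and 8. Gch1 averaged 40.8 ± 31.4 CPM in Ifngr1_KO and 20.6 ± 18.2 CPM in WT (SD, n = 8 each). Its log2 fold change was 1.11 (SE 0.43, edgeR adjusted p = 0.230), so it did not pass. DESeq2's Wald test gave 1.12 with an adjusted p of 0.0467.

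Gch1 spread more between mice than between genotypes. Its highest library stood 43.3-fold above its lowest within Ifngr1_KO and 24.9-fold within WT. It lay under 10 CPM in 5 libraries, Ifngr1_KO of mice 5 and 9 and WT of mice 4, 5 and 9, at 1.88 to 4.96 CPM, and at 17.9 to 100.4 CPM in the other 11. Genes with at least 10 counts numbered 9424 to 10245 in those 5 libraries and 9836 to 10763 in the other 11, and whether this has a part in the spread was not tested.

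The genes most like Gch1 over the 16 libraries were Arhgap9, Xbp1, the transcription factor of the unfolded protein response, and Ifngr2, the second chain of the interferon-gamma receptor. Their Pearson correlations with Gch1 were 0.99, 0.99 and 0.98 among 4610 genes compared, on log2 CPM with group means removed. Ifngr2 had 25.6 CPM at the lowest, 141 at the median and 307 at the highest in Ifngr1_KO, and 24.6, 105 and 197 CPM in WT. Of 4873 genes whose mean log2 CPM was 3 or more, 106 had a correlation above 0.9 with Gch1, against 10 with Acod1 and 0 with Nos2, Arg1, Arg2 and Ass1. All these libraries share their processing and differ in depth, so the correlations are given as a description.

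**Figure D2:**
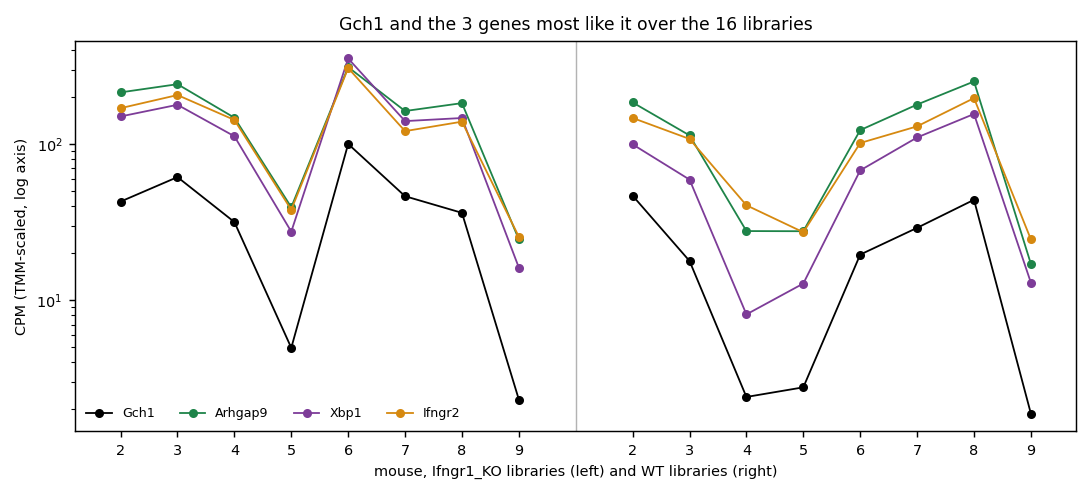
TMM-scaled CPM (log axis) of Gch1 and of Arhgap9, Xbp1 and Ifngr2 in the 8 Ifngr1_KO (left) and 8 WT (right) libraries, by mouse number; lines join values of 1 gene. All 4 genes are at their lowest in Ifngr1_KO of mice 5 and 9 and in WT of mice 4, 5 and 9, and Gch1 runs from 1.88 to 100.4 CPM.

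Arg2 (ENSMUSG00000021125, chr12:79130777-79156301, plus strand, 1428 exon bases), the mitochondrial arginase, was the abundant arginase of these cells. In mice 2 to 9 it had 404, 438, 493, 553, 409, 355, 417 and 534 CPM in Ifngr1_KO, against 451, 586, 601, 612, 534, 500.2, 501 and 701 CPM in WT. It was lower in Ifngr1_KO in every mouse, by 1.11-fold in mouse 5 to 1.41-fold in mouse 7, although the groups overlapped. The means were 450.2 ± 69.2 CPM in Ifngr1_KO and 561 ± 79.7 CPM in WT (SD, n = 8 each), and the log2 fold change was -0.32 (SE 0.08, edgeR adjusted p = 0.0771), which did not pass. It passed without mouse 7 (-0.29, adjusted p = 0.0295), and by DESeq2 (adjusted p = 0.00297) and limma-voom (adjusted p = 0.0243). Arg2 overlaps Vti1b on the other strand by 285 bases and the antisense gene Gm48780, and these libraries do not mark strand. Vti1b had 172 to 837 counts per library and Gm48780 at most 59, beside 4186 to 11704 for Arg2.

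Arg1 (ENSMUSG00000019987, chr10:24915221-24927484, minus strand), the cytosolic arginase known from the liver and from macrophages stimulated by interleukin-4, was close to the lower limit of what these libraries measure. It had 22 to 76 counts per library in Ifngr1_KO and 20 to 104 in WT. That is 1.36, 2.62 and 5.87 CPM (lowest, median, highest) in Ifngr1_KO and 1.48, 2.75 and 5.44 CPM in WT, and the groups covered the same range. Ifngr1_KO was lower in 5 mice and higher in 3. The log2 fold change was -0.19 (SE 0.46, edgeR adjusted p = 0.869), and its approximate 95% interval (normal) spans -1.08 to 0.70, so a difference was not detectable in these libraries. Within mice the log2 difference ran from -1.51 in mouse 3 to 1.43 in mouse 7. Without mouse 3 the estimate was 0.038. Hepatocytes are rich in Arg1 and in Ass1. The list of hepatocyte markers summed to 3337, 3977 and 7304 CPM (lowest, median, highest) in Ifngr1_KO and to 3858, 4843 and 7885 CPM in WT. Hp made up most of these sums, at 3683 ± 924 CPM in Ifngr1_KO and 4098 ± 901 CPM in WT. Alb had 66.7 ± 49.2 CPM in Ifngr1_KO and 59.4 ± 48.0 CPM in WT, and there was no call among 17 tested. Of the same list, Cps1 had at most 13 counts in any library and Otc had 0, so the sum is mainly a measure of Hp. The part of hepatocytes in these low levels was not tested.

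Ass1 (ENSMUSG00000076441, chr2:31470207-31520672, plus strand) encodes argininosuccinate synthase, which starts the recycling of citrulline, the by-product of nitric oxide synthesis, to arginine. It had 3.05, 4.73 and 10.2 CPM (lowest, median, highest) in Ifngr1_KO and 5.81, 8.26 and 14.02 CPM in WT. The groups overlapped, with Ifngr1_KO the lower library in 6 of 8 mice and the higher one in mice 2 and 4, which are also the mice without a higher mitochondrial share in Ifngr1_KO. The log2 fold change was -0.67 (SE 0.30, edgeR adjusted p = 0.302), which did not pass, and once the mitochondrial share entered the fit it was 0.062. Whether the mitochondrial share has a part in the Ass1 values was not tested. Asl, which completes the recycling step, had 28.9 ± 10.3 CPM in Ifngr1_KO and 31.1 ± 5.46 CPM in WT (SD, n = 8 each) and did not pass either (edgeR adjusted p = 0.738).

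Slc7a2 (ENSMUSG00000031596, chr8:40862396-40922308, plus strand) encodes the cationic amino acid transporter CAT2, which carries arginine into cells. Its counts in mice 2 to 9 were 0, 2, 7, 7, 2, 2, 17 and 4 in Ifngr1_KO, against 0, 0, 86, 2, 1, 5, 19 and 27 in WT. Most of the WT sum of 140 counts came from mouse 4, and the Ifngr1_KO sum was 41. In a fit without the filter on low counts its log2 fold change was -0.34 (SE 1.30, edgeR adjusted p = 0.955). A difference was not detectable at this depth.

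Between genes, levels were compared as CPM per kb of merged exons. In Ifngr1_KO the order of the mean levels was Acod1 at 870 ± 204, Arg2 at 315 ± 48.4, Gch1 at 6.53 ± 5.02, Ass1 at 2.27 ± 0.94, Nos2 at 2.09 ± 1.36, Arg1 at 1.37 ± 0.71 and Slc7a2 at 0.0408. In WT it was Acod1 at 1651 ± 323, Arg2 at 393 ± 55.8, Nos2 at 11.8 ± 7.05, Ass1 at 3.49 ± 1.03, Gch1 at 3.29 ± 2.91, Arg1 at 1.49 ± 0.62 and Slc7a2 at 0.146 (all SD, n = 8). Acod1 and Arg2 stood apart from each other and from the rest in both groups. Below them, Gch1, Ass1, Nos2 and Arg1 overlapped in Ifngr1_KO, whereas in WT Nos2 stood above Ass1 and Arg1 and overlapped only Gch1. The level of Arg2 was 115 to 467 times that of Arg1 in Ifngr1_KO (median 272) and 176 to 529 times in WT (median 283). Acod1 was 163 to 1041 times as high as Nos2 per kb in Ifngr1_KO (median 556) and 75.7 to 313 times as high in WT (median 173).

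**Figure D3:**
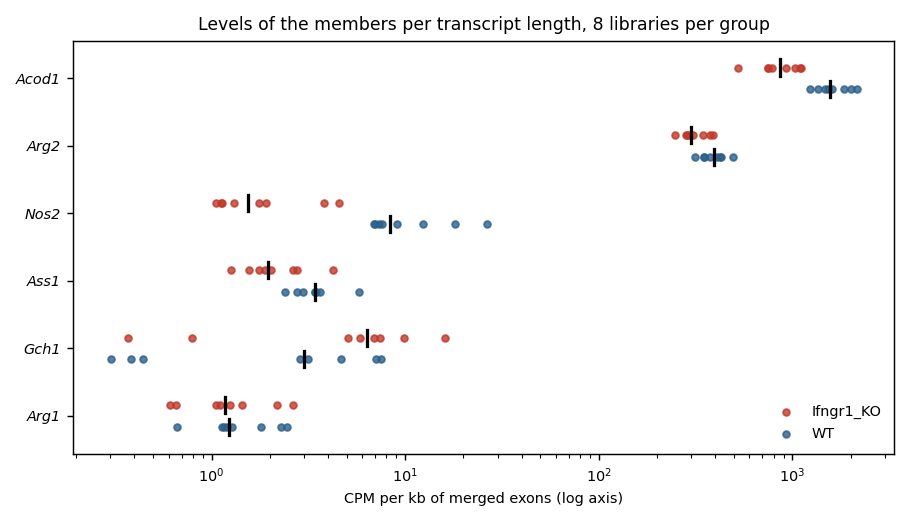
CPM per kb of merged exons (log axis) of the 6 tested genes, 1 point per library, with Ifngr1_KO (red) above WT (blue) in each row and group medians as black bars. Acod1 and Arg2 lie above 200 in every library and the other 4 genes below 30.

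**Figure D4:**
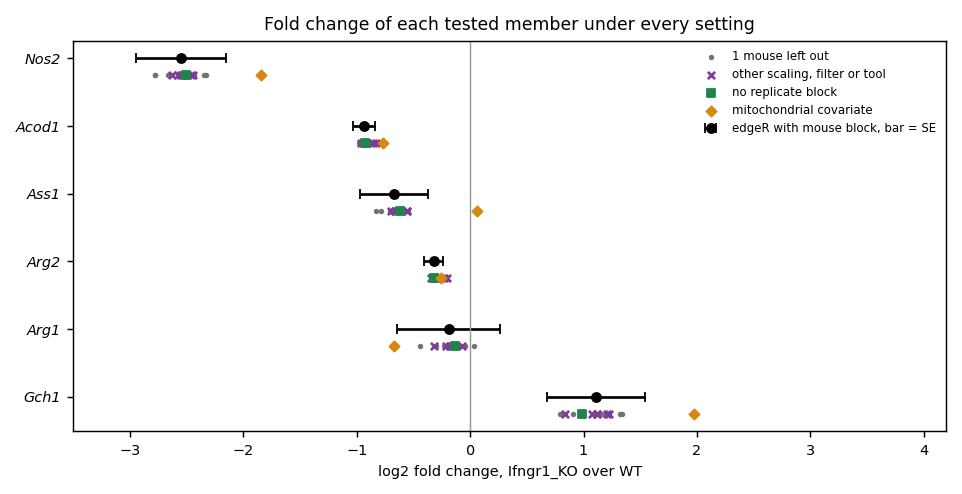
Log2 fold change, Ifngr1_KO over WT, of the 6 tested genes: the edgeR fit with mouse as a block (black, bar = SE) and the same under other scalings, filters and tools, without the block, with 1 mouse left out or with a mitochondrial covariate. Nos2 and Acod1 stay below 0 at every setting shown, Gch1 stays above 0, and Ass1 and Arg1 each cross 0 at 1 setting.

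The pattern of each gene over the libraries was set beside the 4610 genes compared. Acod1 was most like Nfe2l2, the transcription factor NRF2 that itaconate is known to activate (Pearson r 0.94 over 16 libraries), Plk2 (0.93) and Ifit3, an interferon-induced gene (0.92). Nfe2l2 had 642 CPM on average in Ifngr1_KO and 738 CPM in WT and did not pass (edgeR adjusted p = 0.253). Arg2 was most like Chil1 (0.89), Il1rn, the interleukin-1 receptor antagonist (0.88), and Cyb561a3 (0.85), and it ran against Gch1 (-0.85) and with Acod1 (0.81). For Nos2 the nearest genes were Eml3 (0.79), Dnajb1 (0.75) and Arel1 (0.74), for Arg1 Crebbp (0.77), Lyrm1 (0.77) and Ypel5 (0.76), and for Ass1 Zfp646 (0.81), Lpp (0.79) and Fam208b (0.78). Group means were removed first, so the likeness is one between libraries within a genotype.

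The 7 genes were then placed among 13 lists of the surrounding pathways, 132 distinct genes in all. Of the 96 that were tested, 5 passed as lower in Ifngr1_KO, 0 as higher and 91 did not pass (edgeR), with a median log2 fold change of -0.15. They included Nos2, Acod1, Irf1 and Wars, and the 3 that are not among the 7 genes were 3.33% of 90 tested, beside 2.32% lower over all genes. At an unadjusted p under 0.05 there were 17 lower and 8 higher of the 96, beside 16.3% of all genes in either direction. DESeq2 called 9 lower and 6 higher of them, beside 572 lower and 488 higher of all 9851 genes, and limma-voom 6 and 2, beside 425 and 172 of all.

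Calls on the regulators of Nos2 and Acod1 were 2 of 8 tested, both lower. Irf1, an interferon regulatory factor needed for Nos2 induction in mouse macrophages, had 482 ± 155 CPM in Ifngr1_KO and 2478 ± 677 CPM in WT (SD, n = 8 each), a log2 fold change of -2.40 (SE 0.19, edgeR adjusted p = 4.1e-05), and was lower in 8 of 8 mice. The regulators of Arg1 had 0 calls among 4 tested and a median of -0.64; Stat6, the most abundant, had 674 ± 255 CPM in Ifngr1_KO and 1031 ± 204 CPM in WT.

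The nitric oxide synthases and their partners gave 1 call among 8 tested, Nos2, and a median of 0.31. The other synthases were almost unmeasured, with at most 2 counts of Nos1 and at most 26 of Nos3 in any library. Calm2, Calm3 and Dynll1 were higher in Ifngr1_KO in 8 of 8 mice without passing (edgeR adjusted p from 0.0562 for Dynll1 to 0.209 for Calm2). They are named after their values were seen, and the share of all genes higher in 8 of 8 mice was not counted. Calm3 had 49.8 ± 16.9 CPM in Ifngr1_KO and 30.9 ± 9.01 CPM in WT (SD, n = 8 each), and it passed as higher in 4 of the 16 alternative fits, Dynll1 in 6. The 4 were DESeq2, limma-voom, library totals and a mean CPM of at least 10. These called 488, 172, 102 and 126 of all genes tested higher, beside 47 in the main fit. Dynll1 passed in the same 4, with DESeq2 size factors (48 of all genes higher) and without mouse 7 (78). The tetrahydrobiopterin enzymes had 0 calls among 6 tested and a median of -0.0032; Pts, which follows Gch1 in the pathway, had 31.8 ± 9.06 CPM in Ifngr1_KO and 27.4 ± 6.34 CPM in WT.

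Arginine transport and citrulline recycling had 0 calls among 7 tested (median log2 fold change -0.24), with Slc3a2, the shared heavy chain of amino acid transporters, the most abundant at 411 ± 172 CPM in Ifngr1_KO and 521 ± 239 CPM in WT. Arginases, ornithine and polyamine genes had 0 among 15 (median -0.19), led by Sat1, the enzyme that acetylates polyamines, at 1305 ± 244 CPM in Ifngr1_KO and 1139 ± 191 CPM in WT. The response to nitric oxide through cyclic GMP and the removal of nitrosothiols had 0 among 4 (median -0.09). Gucy1b1, a subunit of the nitric oxide receptor, was at 0 in every library, and Txn1, thioredoxin, had 644 ± 285 CPM in Ifngr1_KO and 705 ± 92.2 CPM in WT. The other arginine-modifying enzymes had 0 among 5 (median -0.38), led by Padi4, which citrullinates histones in neutrophils, at 185 ± 71.0 CPM in Ifngr1_KO and 226 ± 36.9 CPM in WT.

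Among genes of itaconate synthesis and its substrate supply, Acod1 was the 1 call of 13 tested (median -0.09). Genes of itaconate removal and transport had 0 calls among 8 (median -0.37), and Rab32, which in macrophages brings itaconate to bacteria-containing vacuoles, had 775 ± 142 CPM in Ifngr1_KO and 931 ± 102 CPM in WT. Succinate dehydrogenase, the enzyme that itaconate inhibits, and its assembly factors had 0 among 6 (median -0.12). Sdhb, the most abundant of them, had 90.1 ± 15.6 CPM in Ifngr1_KO and 96.5 ± 18.6 CPM in WT. Genes linked to itaconate signalling had 0 among 9 (median 0.02). Hmox1, heme oxygenase 1 and a target of NRF2, had 736 ± 125 CPM in Ifngr1_KO and 739 ± 137 CPM in WT.

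Wars was the 1 call of 3 tested among other inducible amino acid and lipid enzymes. It encodes tryptophanyl-tRNA synthetase, known to be induced by interferon-gamma, and had 10.8 ± 6.38 CPM in Ifngr1_KO and 43.3 ± 11.7 CPM in WT (SD, n = 8 each), a log2 fold change of -2.14 (SE 0.32, edgeR adjusted p = 0.00468, lower in 8 of 8 mice). With the mitochondrial share in the model its call, like that of Nos2, was lost (-2.09, adjusted p = 0.280). Ido1, the tryptophan-degrading enzyme often named with Nos2, had no count in any library.

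**Figure D5:**
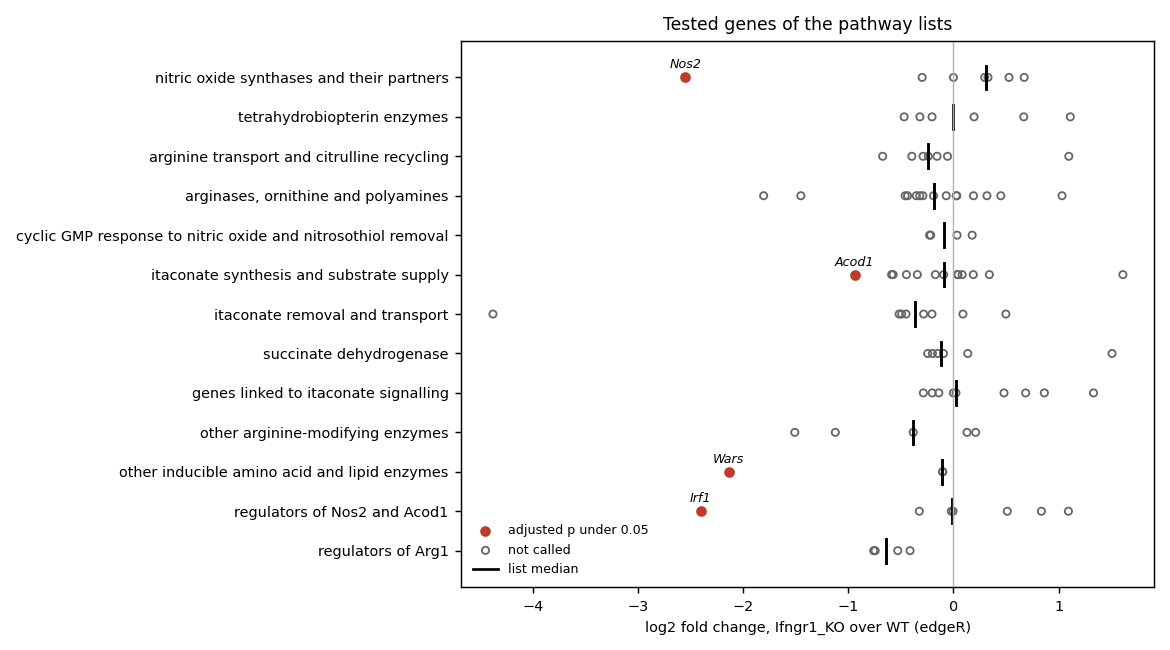
Log2 fold change, Ifngr1_KO over WT, of tested genes in the 13 pathway lists, 1 row per list; filled points passed the edgeR test at an adjusted p under 0.05 and black bars are medians over all tested genes of a list, including those not drawn. Nos2, Acod1, Wars and Irf1 are the filled points, and all lie below 0.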

How the data were processed

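The authors deposited a table of whole-number estimated counts per Ensembl gene, 1 column per library, with no scaling between libraries. Salmon 0.14.2, DESeq2 1.22.1 and build mm10 were used per the submitters' processing notes; the sources used here do not give the annotation, any filter or the rounding. Per the labels' protocols, 1 ng of RNA was copied from oligo-dT primers and amplified over 13 PCR cycles, with neither molecular identifiers nor strand marks, so counts include PCR copies. Gene names and 1-based positions came from GENCODE release M21 (GRCm38), which named all but 37 of the 54532 identifiers.

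The count model was edgeR 4.0.16 (R 4.3.3): filterByExpr with the group (9851 genes kept, 99.7% of counts), TMM scaling, and a robust quasi-likelihood F-test blocked on the mouse, adjusted over all 9851 genes by Benjamini-Hochberg at 0.05. Each SE was obtained as the absolute log2 fold change over the square root of its F. Mouse was the block because the series states that libraries of 1 number came from 1 mouse; deviations of such pairs from their group means correlated at 0.160 on average (0.032 to 0.383) across genes. Differences between genes in response were tested by exact sign-flip permutation over 8 mice, on log2 CPM with a prior of 0.5. Totals of 12.5 to 21.7 M counts limit genes of a few CPM to few counts, and no interval covers PCR error.

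The 7 genes and all lists were chosen with earlier results of these data known. Named were all 7 genes, called genes of each pathway list or else the most abundant one, the 3 genes most like each tested gene, the 2 most abundant markers of a list and Ifngr1. Calm2, Calm3, Dynll1, Asl, Adgre1, Ly6c2, Ltf, Ighm, Cd79a, Alb, Apoa1, C1qb, Cx3cr1, Chil3 and genes at or near 0 were named after their values were seen. Alternatives were no block, other scalings, filters and tools (DESeq2 1.42.0, limma-voom 3.58.1), the mitochondrial share as a covariate, and each mouse left out. The main fit was tested on simulated counts with 50 genes changed by each of 4 known folds. It called 6% of the genes changed 1.5-fold, 24% at 2-fold, 56% at 4-fold and 64% at 8-fold. Of 9651 unchanged genes it called 3. The simulation gave each gene 1 mean with no differences between mice, and drew the changed genes at random from all tested. Its rates average over genes of all levels and do not describe abundant genes alone. A gene that did not pass may therefore still differ. Promoter windows came from RefSeq. No library was left out. Some genes are not reported here.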

Additional observations from a re-analysis of the deposited data

Results flagged for a closer look

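Of 14 sets of 8 libraries (7 genes in both genotypes), 2 held a library far from the rest, by a gap to its neighbour that exceeds Dixon's 95% critical share of the whole range; chance flags about 1 in 20 such sets. Ass1 had 14.02 CPM in the WT library of mouse 5, with the next at 8.81 CPM, a gap of 0.634 of the range. Slc7a2 had 7.13 CPM in the WT library of mouse 4, with the next at 1.69 CPM, a gap of 0.763 of the range. Neither library stood apart in the other of these 2 genes, and no cause was tested.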

How the results depend on the processing

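Acod1 kept its direction and call in all 16 alternatives (-0.98 to -0.77) and Nos2 in 15, the exception being the mitochondrial covariate (-1.85, adjusted p = 0.441). Arg2 passed with DESeq2 (-0.31), limma-voom (-0.30) and without mouse 7 (leave-one-out -0.34 to -0.29), Gch1 with DESeq2 (1.12). Directions turned for Ass1 with the covariate (0.062) and for Arg1 without mouse 3 (leave-one-out -0.44 to 0.038). Gaps of Nos2 to Acod1, Arg2 and Gch1 kept sign and call in 11 of 11 alternatives each (sign-flip test, adjusted p 0.0117 to 0.0469). These are fewer than the 16 alternatives of the gene fits, and the sign-flip test on CPM takes no covariate. The gaps were thus not tested with the mitochondrial covariate, under which Nos2 lost its call. Genes called lower, 229, numbered 572 with DESeq2, 425 with limma-voom, 65 with the covariate and 144 to 334 with 1 mouse left out (144, 145, 144 and 152 without mice 3, 6, 8 and 9). Genes called higher, 47, numbered 102 with library totals, 31 without a filter, 126 at a mean CPM of at least 10, 488 with DESeq2, 172 with limma-voom, 4 with the covariate and 19 to 78 with 1 mouse left out (19, 24, 78, 26 and 22 without mice 3, 6, 7, 8 and 9). Of the pathway genes, DESeq2 called 9 lower and the covariate fit 3, while higher calls were 1 with DESeq2 size factors, 2 with library totals, the CPM minimum or limma-voom, 6 with DESeq2 and 0 to 2 with 1 mouse left out, the 2 being without mouse 7. Without the replicate block 216 genes were lower and 52 higher, Nos2 was at -2.50 and Acod1 at -0.92, and no call on the 7 genes changed. With library totals the median gene stood at 0.16, beside 0.05 with TMM; relative to it Nos2 was at -2.60, Acod1 at -0.98 and Gch1 at 1.06. Arg1 and Ass1 gave no value under the CPM minimum. The cause of each change was not tested. Arg1 and Slc7a2 rest on at most 104 and 86 counts per library.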
